A study of Mus musculus with 3 samples.

Results

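The immune cells of the outer medulla (OM) were compared with those of the inner medulla (IM) of the mouse kidney, over every cell cluster. The members were all cells of the authors' raw count table whose compartment was OM or IM, which gave 6753 OM and 6005 IM cells, 12758 of the 20266 cells in all. The study dissected kidneys into cortex, OM and IM, sorted living CD45+ leukocytes and profiled the RNA of single cells in droplets in 3 places, Aachen, Bonn and Hamburg. All mice were untreated wild-type C57BL/6J males aged 10 weeks, so that the OM and IM groups shared strain, sex, age and treatment, and the label that sets them apart is the dissected region. The cells of 1 compartment at 1 facility were treated as 1 library, and the 3 facilities were the replicates (n = 3) and paired the compartments. How many mice a library pools is not given in the sources used here, so the p-values measure the spread between these libraries, which may be technical.

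The renal medulla has low oxygen tension and high interstitial salt and urea, and salt and urea rise toward the papilla. The outer medulla holds the straight ends of the proximal tubules, the thick ascending limbs and the vascular bundles, while the inner medulla holds thin limbs and collecting ducts. Resident macrophages are a main leukocyte type of the healthy medulla and sample the tubules and the interstitium. Conventional dendritic cells (cDCs) capture antigen and carry it to lymph nodes, and T cells, B cells, NK cells and group 2 innate lymphoid cells (ILC2) patrol or reside in the tissue.

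Depth differed more between facilities than between compartments. The median of unique molecular identifiers (UMIs) per cell was 744 in Aachen OM and 971 in Aachen IM, 3259 in Bonn OM and 3505 in Bonn IM, and 2802 and 2938 in the Hamburg pair. The libraries held from 621 cells (Bonn OM) to 3677 cells (Aachen OM), and at most 2 cell barcodes were shared by the OM and IM libraries of a dataset. Each cluster was checked against markers of its cell type: B cell markers were highest in B_cell_2, T cell markers in T_cell_2, NK cell markers in NK_cell_1, ILC2 markers in ILC2, neutrophil markers in Neutrophils, resident macrophage markers in Macrophage_3 and cDC2 markers in cDC2. The pDC cluster, with 34 OM and IM cells, carried the most plasmacytoid markers (95.7 per 10000 UMIs) and also stood above Monocyte in monocyte markers (47.1 against 41.4) and above cDC1 in cDC1 markers (29.5 against 28.3). The cluster that the authors left as Undefined carried the most plasma cell markers, at 254 per 10000 UMIs. Jchain, from that list, was found in only 3 OM and 4 IM cells of its 52. The proximal tubule gene Kap was found in 26 of its 28 Bonn IM cells, so the marker value does not describe the cluster as a whole. The Aachen table held 0 UMIs of the 160 Igkv, 185 Ighv, 35 Trbv and 128 Trav segments, so antigen receptor segments were measured in the Bonn and Hamburg datasets alone.

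Of the 3 IM libraries, 2 stood apart. Proximal tubule transcripts, which do not belong to the inner medulla, made up 17.3 per 10000 UMIs in Bonn IM against 4.51 in Bonn OM and 1.05 in Bonn cortex. They made up 1.24 and 0.499 in Aachen IM and OM, and 0.349 and 0.440 in Hamburg IM and OM. Most of the Bonn IM signal lay in the Undefined cluster, where 28 cells held 12637 of the 15187 proximal tubule UMIs, but without this cluster Bonn IM was still at 2.99 against 0.576 in OM. Aachen IM lay close to the Aachen cortex in 2 shares: Macrophage_3 made up 0.337% of its cells against 0 of 1395 in the cortex (which allows a share of up to 0.264% by an exact binomial interval) and 23.7% in OM, and T cells made up 32.4% against 30.3% in the cortex and 12.0% in OM. Of the inner medullary tubule genes, Slc14a2, Sptssb and Epha7 had at most 2 UMIs in any library. Cryab, a small heat shock protein of the inner medulla, had 155 UMIs in Bonn IM, 20 in Bonn OM and 21 in Bonn cortex, 2 in Aachen IM and 47 in Aachen OM, and 4 and 2 in Hamburg IM and OM. Whether these 2 libraries hold tissue of another region was not tested. For some of the results below, but not for all, values without 1 or both of these libraries are given as well.

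**Figure D1:**
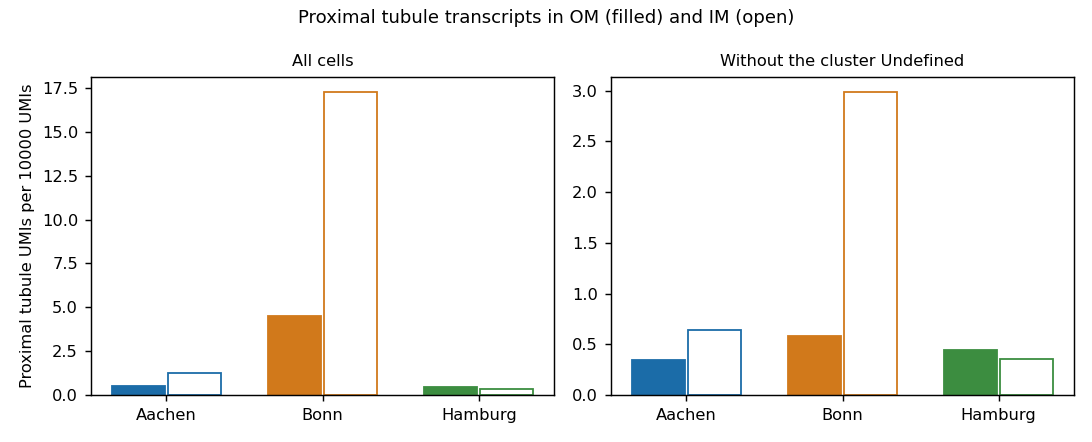
UMIs of 20 proximal tubule genes per 10000 UMIs (y axis) in the OM library (filled bar) and IM library (open bar) of each dataset, over all cells (left) and without the cluster Undefined (right). Bonn IM stands at 17.3 over all cells and 2.99 without Undefined, and no other library without Undefined exceeds 0.636.

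The make-up of OM and IM was compared first. No class of cells differed between the compartments in the same direction in all 3 datasets. Resident macrophages (Macrophage_1 to 3 and Isg+_Macrophage) made up 53.1, 27.1 and 19.7% of the OM cells in Aachen, Bonn and Hamburg, and 28.7, 34.3 and 12.6% of the IM cells. Their share was therefore higher in OM in Aachen and Hamburg and lower in Bonn. The mean difference, OM minus IM, was 8.07 ± 15.8 percentage points (SD, n = 3, p = 0.75 by a two-sided exact permutation test that swaps compartments within a dataset). This test has 8 arrangements and cannot give a p below 0.25.

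T cells took 12.0, 19.0 and 18.6% of the OM cells and 32.4, 15.5 and 31.1% of the IM cells. They were less frequent in OM in Aachen and Hamburg, with differences of -20.4 and -12.5 percentage points, and more frequent in Bonn, with 3.47 points. The mean difference of -9.80 ± 12.2 points (SD, n = 3) had an exact permutation p of 0.50. All lymphocytes followed the T cells, with 31.2, 53.8 and 48.9% in OM against 59.0, 47.0 and 64.9% in IM (mean difference -12.3 ± 17.6 points, exact permutation p = 0.50). B cells were nearer to even: 14.03, 29.8 and 21.1% in OM against 17.2, 28.0 and 24.1% in IM, a mean difference of -1.46 ± 2.79 points.

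The rarer classes showed the same lack of a common direction. NK cells were at 2.58, 3.06 and 6.84% in OM and 7.08, 2.19 and 7.19% in IM. The cDCs (cDC1 and cDC2) were at 2.77, 7.57 and 8.88% in OM and 3.76, 6.83 and 4.81% in IM, so that only the Hamburg pair differed by more than 1 point, with OM higher. The exact permutation p was 0.75 for both classes.

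**Figure D2:**
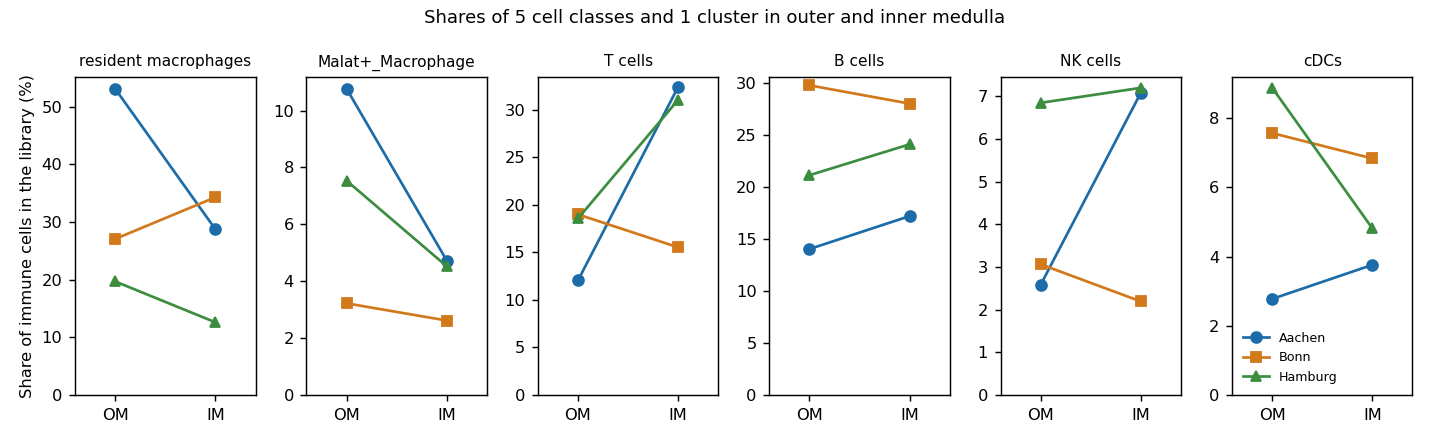
Share of the immune cells of a library (y axis, percent) in OM and IM for 5 cell classes and the cluster Malat+_Macrophage; each line joins the 2 libraries of a dataset. Only the lines of Malat+_Macrophage all fall from OM to IM, from 10.8, 3.22 and 7.54% to 4.72, 2.62 and 4.52%.

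Over the 23 clusters, edgeR's quasi-likelihood test on the numbers of cells, with the dataset as a block, called 0 (percent called 0), and 0 had an unadjusted p under 0.05. The smallest adjusted p was 0.570. The count was also 0 under each alternative, including limma on logit shares. Higher shares in OM in 3 of 3 datasets were found for 2 clusters (8.7% of the 23) and lower shares in 3 of 3 for 0.

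Both were macrophage clusters. Malat+_Macrophage, cells with macrophage markers and a high share of the nuclear RNA Malat1, made up 10.8, 3.22 and 7.54% of OM and 4.72, 2.62 and 4.52% of IM cells. The ratio was 0.77 ± 0.38 on the log2 scale (SE, 95% interval -0.10 to 1.65, edgeR adjusted p = 0.570). Isg+_Macrophage, macrophages marked by interferon-stimulated genes, made up 1.60, 1.93 and 2.36% of OM and 1.25, 0.694 and 1.41% of IM cells, with a log2 ratio of 0.84 ± 0.46 (SE, 95% interval -0.21 to 1.90, adjusted p = 0.570). Every OM share of Isg+_Macrophage lay above every IM share, while those of Malat+_Macrophage overlapped between datasets. Neither cluster passed the test.

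Macrophage_3 had the largest ratio of the 23 clusters, with a wide interval. It took 23.7, 11.6 and 4.52% of the OM cells and 0.337, 14.8 and 1.94% of the IM cells (log2 ratio 2.34 ± 1.32, SE, 95% interval -0.69 to 5.38, adjusted p = 0.570). The Aachen pair set this value. Its 2 barcode suffixes gave the same picture, with 23.7 and 23.8% in OM and 0.251 and 0.454% in IM. In Bonn the order was the opposite, so this cluster was not higher in OM in all datasets. Without the Aachen IM library the log2 ratio was 1.03 and without the Bonn IM library 2.78.

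Within the lymphocytes, the T cell clusters lay below 0 as a group, and none passed the test. T_cell_1 was at 3.97, 8.53 and 6.19% in OM and 14.7, 7.74 and 9.43% in IM (log2 ratio -0.80 ± 0.47, SE, 95% interval -1.88 to 0.27), and T_cell_2 at 5.30, 6.44 and 5.87% in OM and 12.9, 4.16 and 11.8% in IM (-0.60 ± 0.45). In both, Aachen and Hamburg were lower in OM and Bonn was higher. Without the Aachen IM library the log2 ratios were -0.32 and -0.34, and without the Bonn IM library -1.13 and -1.03, still with 0 clusters called. In the Aachen libraries T_cell_2 varied as much between the barcode suffixes of a compartment (7.50 and 1.37% in OM, 18.5 and 5.22% in IM) as between compartments. B_cell_1, the main B cell cluster, was at 12.9, 26.7 and 16.1% in OM and 16.3, 25.4 and 18.6% in IM, with a log2 ratio of -0.16 ± 0.34, SE. NK_cell_1 and NK_cell_2 had log2 ratios of -0.52 ± 0.64 and -0.30 ± 0.58, and ILC2, at 2.58, 1.93 and 2.36% in OM and 2.31, 1.23 and 2.53% in IM, one of 0.22 ± 0.37.

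Among the other myeloid cells, cDC2 made up 2.20, 6.44 and 6.52% of OM and 2.41, 6.14 and 3.65% of IM cells (log2 ratio 0.29 ± 0.41, SE), and cDC1, the cross-presenting subset, 0.571, 1.13 and 2.36% of OM and 1.35, 0.694 and 1.17% of IM cells (0.26 ± 0.57). Monocytes were at 0.789, 4.03 and 6.27% in OM and 1.54, 4.81 and 4.96% in IM. Neutrophils ranged from 1 of 3677 cells (0.0272%) in Aachen OM to 3.83% in Hamburg OM, against 0.723 to 2.53% in IM. For all of these the interval of the ratio included 0.

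**Figure D3:**
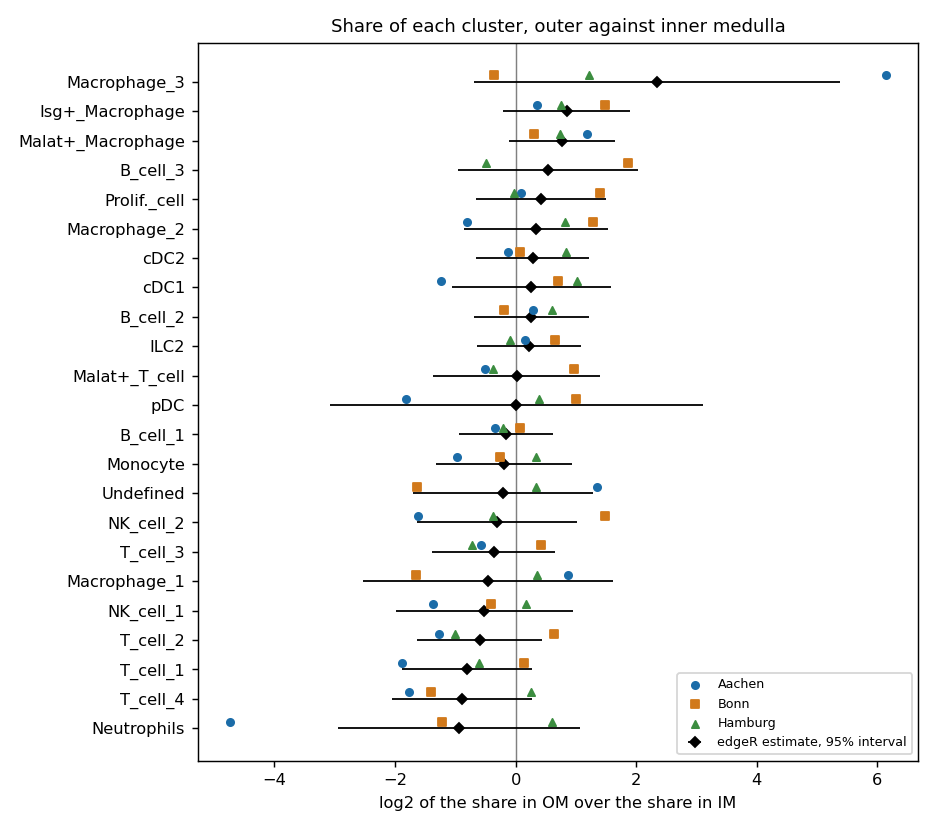
Log2 of the share in OM over the share in IM (x axis) for each of the 23 clusters; coloured points are the datasets, black diamonds the edgeR estimates and bars their 95% intervals (B_cell_3 has no Aachen point because Aachen IM had 0 such cells). Every interval includes 0.

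The make-up within a class was compared as well, over 15 clusters of 5 classes. T_cell_3 took a higher share of the T cells in OM in 3 of 3 datasets, 22.9 ± 5.42% against 19.3 ± 8.91% in IM (SD, n = 3), by 8.95, 1.62 and 0.372 points. Macrophage_1 took a lower share of the resident macrophages in 3 of 3, with differences of -0.286, -26.5 and -10.4 points, and B_cell_1 a lower share of the B cells, with differences of -2.71, -0.746 and -0.908 points. The smallest of each set of differences lay below 1 point, and the shares within a class were not tested.

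Gene expression within clusters was then compared on counts summed per library and cluster. A total of 14 clusters had at least 10 cells in each of the 6 OM and IM libraries. Over these, 53953 gene tests gave 20 calls at an adjusted p under 0.05 (percent called 0.0371), 9 higher and 11 lower in OM. Unadjusted p-values under 0.05 were found for 3.81% of the tests and, by cluster, for 1.62 to 5.32%. The 20 calls were 20 different genes in 7 clusters, and 11 of them had the same sign in 3 of 3 datasets. The other 7 clusters, among them T_cell_1, T_cell_2, T_cell_3, ILC2 and Macrophage_1, had 0 calls by edgeR and 0 by DESeq2, with 26 to 278 genes at an unadjusted edgeR p under 0.05. The 6 classes gave 8 calls in 45684 tests (percent called 0.0175), with 0 in T cells, NK cells and resident macrophages. The class of all lymphocytes holds the T, B and NK cells again, so the 6 classes overlap. Its calls, Igkv14-100 and Ighv6-6, were also those of the B cells.

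The most calls in a cluster were those of cDC2, the dendritic cells that present antigen on MHC class II to CD4+ T cells. In cDC2, 6 of 4430 genes were called (percent called 0.135), 5 lower (0.113) and 1 higher (0.0226) in OM, and all 6 had the same sign in 3 of 3 datasets. The libraries held 81, 40 and 160 cDC2 cells in OM and 50, 115 and 75 in IM. Values are given as CPM, the counts of the summed cDC2 cells relative to their TMM-scaled total, in the order Aachen, Bonn and Hamburg.

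Isg15 encodes a ubiquitin-like protein that type I interferon induces. It was at 29.8, 71.4 and 108.9 CPM in OM and at 234, 120.9 and 288 CPM in IM. Every IM library was above every OM library. The log2 fold change was -1.32 ± 0.26 (SE, edgeR adjusted p = 0.0275), from 108 UMIs in 45 cells of OM and 252 UMIs in 56 cells of IM. Isg15 lies on chromosome 4 (GRCm38, 156199424 to 156200818, minus strand).

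The promoter of Isg15 is shown because the interferon-stimulated response element, to which interferon-activated transcription factors bind, can be read in it. The search was for GAAA, any 2 bases and GAAA again, on either strand, within 250 bases upstream of the start in RefSeq (GRCm38.p6). They were found in 978 of 32851 promoters (2.98%) and in 9 of the 12 matched genes of the 18 on the interferon response list. Of the 5 matched genes called in cDC2, Isg15 alone held them, with 3 overlapping matches 78 to 57 bases upstream of the start. The promoters of Bst2 and Gbp2, from the same list, are set beside it, with the matches in capitals, written 5′ to 3′ on the strand of the gene (chr4:156200860-156200911, chr8:71537572-71537617 and chr3:142620589-142620628).
Isg15: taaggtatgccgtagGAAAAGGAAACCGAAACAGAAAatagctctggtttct
Bst2: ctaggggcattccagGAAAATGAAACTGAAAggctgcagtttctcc
Gbp2: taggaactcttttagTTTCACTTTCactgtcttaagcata
In Gbp2 the match is read on the other strand. A match is a description of the sequence, and binding was not measured.

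Fscn1 encodes fascin, an actin-bundling protein that marks mature, migratory dendritic cells. It was at 0, 136.4 and 135.2 CPM in OM and at 198.9, 254.9 and 470.3 CPM in IM, again with every IM library above every OM library. The log2 fold change was -1.61 ± 0.31 (SE, edgeR adjusted p = 0.0239). The transcript came from few cells: 0, 2 and 6 cells in OM and 3, 10 and 7 in IM, and 40 of the 42 Bonn OM UMIs lay in 1 cell. Other genes of mature dendritic cells, chosen after their values were seen, did not pass: Cd40, the receptor for T cell help, had a log2 fold change of -1.26 ± 0.31 (adjusted p = 0.257), Socs2 of -1.51 ± 0.36 (adjusted p = 0.170), Cd83 of -0.46 ± 0.18 and Ccr7, the receptor that guides dendritic cells to lymph nodes, of -0.54 ± 0.36. Ccr7 was higher in OM in Bonn, at 97.4 against 65.9 CPM. Ccl17 (-1.39 ± 0.65), Relb (-0.38 ± 0.25), Il4i1 (-0.36 ± 0.24), Ccl22 (-0.29 ± 0.50) and Cd86 (0.01 ± 0.26) did not pass either. None of these had the same sign in 3 of 3 datasets.

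Dusp2, a phosphatase that switches off MAP kinases, was at 89.3, 19.5 and 90.6 CPM in OM and 222.3, 45.1 and 226.9 CPM in IM. It was lower in OM by a similar factor in each dataset, although the Bonn levels lay below the others in both compartments. The log2 fold change was -1.29 ± 0.24 (SE, edgeR adjusted p = 0.0222). Ccl5, a chemokine for T cells and monocytes, was at 416.5, 308.5 and 606.4 CPM in OM and 2141, 746.2 and 841.3 CPM in IM (-1.31 ± 0.24, adjusted p = 0.0222), and the compartments did not overlap. Single cells weighed on Ccl5, with 359 of 679 UMIs in 1 Bonn IM cell and 254 of 462 UMIs in 1 Hamburg OM cell.

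Nudt17, a hydrolase of the Nudix family, was nearly absent from OM, at 0, 0 and 6.56 CPM against 23.4, 49.5 and 59.1 CPM in IM. These levels rested on 5 UMIs in OM and 72 in IM (log2 fold change -3.64 ± 0.58, SE, edgeR adjusted p = 0.00979). Ifitm1, a membrane protein of the interferon-induced family that blocks virus entry, was the gene higher in OM, at 39.7, 29.2 and 70.9 CPM against 0, 8.79 and 7.09 CPM in IM (2.57 ± 0.43, adjusted p = 0.00979), from 67 and 11 UMIs. Its neighbours Ifitm2 and Ifitm3 did not pass, with log2 fold changes of 0.21 ± 0.17 and 0.06 ± 0.14. On GRCm38, Fscn1 lies on chromosome 5 (142960343 to 142973185), Dusp2 on chromosome 2 (127336159 to 127338376), Ccl5 on chromosome 11 (83525778 to 83530518), Nudt17 on chromosome 3 (96706067 to 96708562) and Ifitm1 on chromosome 7 (140967221 to 140969825).

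**Figure D4:**
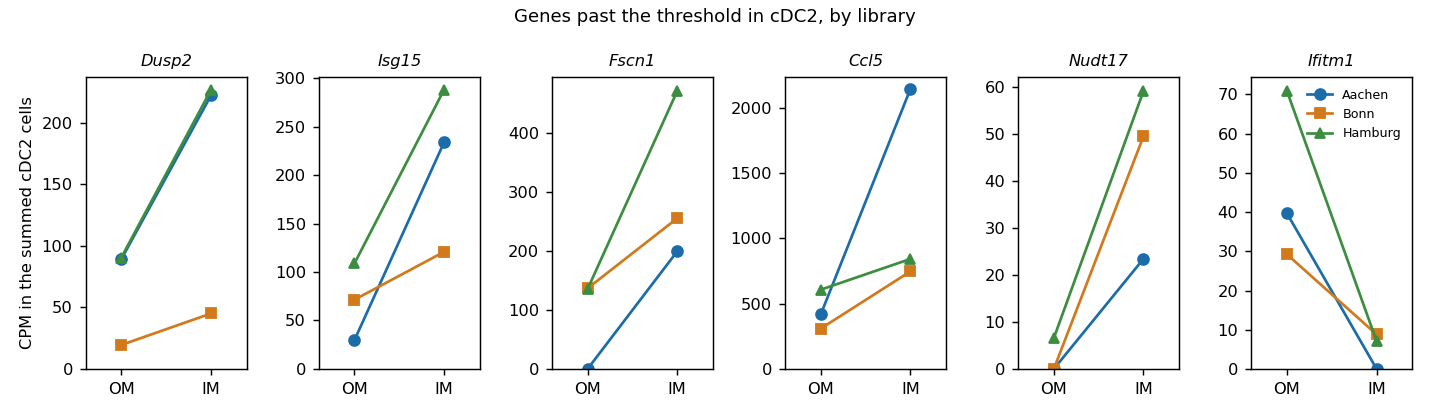
CPM in the summed cDC2 cells (y axis) in OM and IM for the 6 genes that passed the threshold in cDC2; each line joins the 2 libraries of a dataset. All lines rise from OM to IM for Dusp2, Isg15, Fscn1, Ccl5 and Nudt17, and all fall for Ifitm1.

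Without the cell that held the most UMIs of the gene in each library, all 6 genes kept their direction in 3 of 3 datasets. The count of cDC2 calls was 6 without the Aachen IM library and 10 without the Bonn IM library. It ranged from 3 to 15 when a dataset was left out. These counts include genes other than the 6 above. Without the Aachen dataset, Dusp2, Ccl5, Fscn1 and Isg15 no longer passed (edgeR adjusted p = 0.0846, 0.524, 0.0794 and 0.199). Without the Hamburg dataset, Ccl5 stayed (edgeR adjusted p = 0.0229). Ifitm1, Dusp2, Fscn1 and Isg15 were then lost (0.9998 for each), and Nudt17 was not tested. After thinning to 500 UMIs the count was 1. Without Bonn IM, Nudt17 did not pass the filter on low counts. Without Aachen IM, Isg15 and Ccl5 no longer passed, with log2 fold changes of -1.24 and -1.01 (adjusted p = 0.0737 and 0.252). DESeq2 called 2 genes in cDC2, Nudt17 and Ifitm1, and the fit without the dataset as a block called 0. The identity genes of cDC2 did not differ past the threshold: Cd209a had a log2 fold change of 0.13 ± 0.17, Clec10a of 0.31 ± 0.18 and Flt3 of 0.02 ± 0.22. Markers of other cells did not move one way with these genes: resident macrophage markers in cDC2 were at 25.2, 2.90 and 11.6 per 10000 UMIs in OM and 14.4, 9.37 and 9.30 in IM, and T cell markers at 0.754, 1.04 and 0.207 in OM and 2.18, 0.805 and 0.184 in IM.

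Over both cDC clusters together, 4 genes of 6757 were called (percent called 0.0592). These were Fscn1, Isg15 and Dusp2, lower in OM with log2 fold changes of -1.63 ± 0.26, -1.30 ± 0.23 and -1.18 ± 0.21, and Ifitm1, higher with 2.63 ± 0.44 (SE, edgeR adjusted p = 0.0354 for each). The count was 8 without the Aachen IM library, 2 without the Bonn IM library and 0 to 28 when a dataset was left out. Among the next genes, which did not pass, were Psme2, a proteasome activator subunit, at -0.69 ± 0.14 and Txn1, thioredoxin, at -0.72 ± 0.14 (adjusted p = 0.0948 for both). The difference between the effect in cDCs and that in all other cells was tested as an interaction, and 0 of 6735 genes passed (231 at an unadjusted p under 0.05). Its log2 value was 2.78 ± 1.03 for Ifitm1, -1.01 ± 0.39 for Isg15 and -1.77 ± 0.89 for Fscn1 (SE, edgeR adjusted p rounding to 1 for each), so the effects were not shown to be particular to cDCs.

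In the Monocyte cluster, 5 of 5455 genes were called (percent called 0.0917), 4 higher (0.0733) and 1 lower (0.0183) in OM. Only C1qb and C1qc, 2 chains of complement C1q that resident macrophages produce, had the same sign in 3 of 3 datasets. C1qb was at 1235, 692 and 250.3 CPM in OM and 547, 483 and 125.7 CPM in IM (log2 fold change 0.84 ± 0.19, SE, edgeR adjusted p = 0.0361). C1qc was at 1030, 564 and 152.5 CPM in OM and 371, 312 and 104.0 CPM in IM (0.91 ± 0.21, adjusted p = 0.0422). The datasets overlapped, since Aachen IM lay above Hamburg OM. In Bonn OM the transcripts came from few cells: C1qb from 4 of 25, with 46 of 103 UMIs in 1 cell, and C1qc from 3, with 42 of 84 UMIs in 1 cell. Without the cell that held the most UMIs in each library, both genes stayed higher in OM in 3 of 3 datasets. The Bonn pair was then close for C1qb, at 436 and 401 CPM. The 9 resident macrophage markers together were also higher in the OM monocytes. They were at 97.0, 67.2 and 41.2 per 10000 UMIs in OM against 71.2, 62.2 and 36.6 in IM. The list holds C1qb and C1qc themselves and C1qa, so part of this agreement was fixed in advance. The part of the other markers in the result was not tested. Both calls were lost at a similar size without the Aachen IM library (log2 fold changes 0.82 and 0.88, adjusted p = 0.479 and 0.501), without the Bonn IM library (0.96 and 0.73, adjusted p = 0.0988 and 0.999) and with DESeq2 (0.86 and 0.95). After thinning each cell to 500 UMIs the log2 fold changes were 0.24 and -0.01.

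The other monocyte calls had no common sign in 3 of 3 datasets and also rested on few cells. S100a9, a gene on the list of neutrophil markers, had 51 UMIs in OM and 4 in IM. Of the 40 Hamburg OM UMIs, 32 lay in 1 cell, and both Bonn libraries had 0. Neutrophil markers in Monocyte, S100a9 included, were at 6.73 per 10000 UMIs in OM against 0.996 in IM in Aachen. They were at 1.71 against 0.833 in Hamburg and at 0.831 against 1.04 in Bonn. Their part in the result was not tested. Hspb1, a small heat shock protein, was higher in OM in Aachen and Hamburg and lower in Bonn. Igkv1-135, an immunoglobulin kappa segment, had 1 UMI in OM and 57 in IM, a CPM ratio of 56.2 (IM over OM, 95% counting interval 9.68 to 2256).

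In the macrophage clusters, Ccl8, a chemokine for monocytes, was called in Isg+_Macrophage (1 of 1567 genes, percent called 0.0638). It was at 316, 745 and 154.4 CPM in OM and 0, 18.2 and 19.3 CPM in IM, with every OM library above every IM library. With 86 UMIs in OM and 3 in IM, the CPM ratio was 21.8 (95% counting interval 7.21 to 108). In Bonn OM all 55 UMIs lay in 1 of 12 cells, and in Hamburg OM 15 of 20 UMIs lay in 1 cell. Without the cell that held the most UMIs in each library, both Bonn libraries were at 0. Ccl8 was then higher in OM in Aachen and Hamburg only. Without the Bonn IM library the log2 fold change was 3.58, against 4.28 in the full fit, and the call was lost (edgeR adjusted p = 0.277). In Macrophage_2, 3 of 4452 genes were called (percent called 0.0674), all lower in OM. Ly6a, the surface protein Sca-1, which interferon induces, was at 9.13, 10.9 and 17.7 CPM in OM and 25.8, 109.7 and 61.4 CPM in IM (log2 fold change -2.30 ± 0.44, SE, adjusted p = 0.0141), again without overlap of the compartments, from 11 and 59 UMIs. Monocyte markers in Macrophage_2 were also lower in OM in 3 of 3 datasets, at 1.79, 4.36 and 2.17 per 10000 UMIs against 2.66, 6.77 and 2.56 in IM, and their part in the result was not tested. Without the Bonn IM library the log2 fold change was -2.50 (adjusted p = 0.0882) and without doublets -2.12 (0.111), so that the call was lost while the size stayed near that of the full fit. The other calls there were not shared by the datasets: Ccl7 had 0 UMIs in both Bonn libraries and 80 of its 136 Hamburg IM UMIs in 1 cell, and Cd209a was higher in OM in Aachen. The resident macrophages as a class had 0 calls among 8228 genes by edgeR and by DESeq2, with 260 and 60 genes at an unadjusted p under 0.05.

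In B_cell_1, 2 of 8106 genes were called (percent called 0.0247). Cd3e, a chain of the T cell receptor complex, was at 8.49, 0 and 5.20 CPM in OM and 78.7, 10.5 and 32.6 CPM in IM (log2 fold change -3.02 ± 0.50, SE, edgeR adjusted p = 0.0482), from 8 and 73 UMIs. The list of T cell markers in B_cell_1, which includes Cd3e, was also lower in OM. It was at 0.876, 0.0636 and 0.415 per 10000 UMIs in OM and 2.48, 0.472 and 1.29 in IM. The share of T cells was lower in OM in the Aachen and Hamburg libraries as well. Cells marked as doublets made up 6.99, 2.03 and 0.826% of the IM and 3.64, 1.45 and 0.407% of the OM libraries. Without them Cd3e did not pass the filter on low counts, and Cd3e is itself among the genes used to mark them. The part of T cell RNA and of doublets in the result was not tested. The log2 fold change was -2.75 without the Aachen IM library (adjusted p = 0.149) and -2.94 without the Bonn IM library (0.0661), near that of the full fit although the call was lost. The identity and maturation genes of B cells did not differ past the threshold: of the 12 genes on the list of B cell maturation and activation, 0 were called in the B cells, and their median log2 fold change was 0.00, beside 0.00 over all genes.

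The remaining B cell calls were immunoglobulin segments, each carried by a few cells. Igkv14-100 had 0 UMIs in OM and 242 in 9 IM cells of B_cell_1, at least 50.0-fold lower in OM when 3 counts over the group are taken as the floor. In B_cell_2, 2 of 1825 genes were called (percent called 0.11). Igkv3-2 had 105 UMIs in 2 OM cells and 1 UMI in IM, a CPM ratio of 135 (95% counting interval 23.7 to 5390), and Igkv9-124 had 59 UMIs in 2 OM cells and 0 in IM, at least 25.3-fold higher. Over all B cells, 2 of 8509 genes were called (percent called 0.0235), Igkv14-100 and Ighv6-6, 1 in each direction (0.0118). Ighv6-6 was higher in OM in Bonn (141.9 against 32.1 CPM) and Hamburg (80.0 against 28.9 CPM). A kappa or heavy chain segment is fixed in a B cell clone, and these values count segments in a few cells per library.

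T cells, NK cells and ILC2 had 0 calls apart from 1 of 1155 genes in NK_cell_2 (percent called 0.0866). This was AY036118, a transcript from a ribosomal RNA locus, which had 0 UMIs in Aachen OM and was higher in OM in Bonn and Hamburg. The genes with the smallest p-values in these cells are given as values that did not pass. Gzmb, granzyme B of cytotoxic cells, was at 115.0, 39.7 and 134.1 CPM in the T cells of OM and 182.3, 72.5 and 214.6 CPM in those of IM. It was lower in OM within each dataset, while the datasets overlapped (log2 fold change -0.71 ± 0.14, SE, edgeR adjusted p = 0.336). All 11 tested genes on the list of cytotoxic effectors had a log2 fold change below 0 in T cells, with a median of -0.13 and 0 called. The median over all genes tested in T cells was -0.0001. Genes of a list are counted in the same cells and libraries, so they are not independent.

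In ILC2, Csf2, which encodes GM-CSF, was at 0, 129.1 and 618 CPM in OM and 81.8, 782 and 1921 CPM in IM, lower in OM in 3 of 3 datasets (log2 fold change -1.98 ± 0.35, SE, edgeR adjusted p = 0.0850). Single cells weighed on Csf2: 42 of the 53 Bonn IM UMIs lay in 1 cell, and Aachen IM held 3 UMIs in 2 cells. Il13, the type 2 cytokine, was counted in Hamburg alone, at 162.9 CPM in OM and 915 CPM in IM (adjusted p = 0.227). In Hamburg IM 48 of its 112 UMIs lay in 1 cell. Of the 10 tested genes on the list of ILC2 effectors, 3 were lower in OM at an unadjusted p under 0.05 and 0 were called, with a median of -0.30. The ILC2 libraries were small, from 12 cells in Bonn OM to 95 in Aachen OM.

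Transcripts that belong to other cells were counted in many clusters and moved with single libraries. Kap, an androgen-regulated gene of the proximal tubule, was found in 263 of 475 B_cell_1 cells of Bonn IM and in 17 of 166 of Bonn OM, at 261 and 42.5 CPM, and in no B_cell_1 cell of the other datasets (edgeR adjusted p = 0.0942). In T cells, Lyz2, the lysozyme of myeloid cells, was at 1358, 15.9 and 74.9 CPM in OM and 414, 15.7 and 5.67 CPM in IM (log2 fold change 2.01, not called). It was higher in OM in Aachen and Hamburg and level in Bonn. The resident macrophage markers in T cells were also highest in Aachen, at 36.2 and 31.5 per 10000 UMIs in OM and IM, against 0.715 to 1.70 in the other libraries. In Malat+_Macrophage, 1 of the 49 Bonn IM cells held 2407 UMIs of Jchain and 13511 of Igkv6-23, genes of plasma cells.

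Gene lists were followed across all clusters. The immediate early genes, which code for transcription factors and feedback regulators that rise within minutes of a stimulus or of tissue handling, were lower in OM in most clusters. Their median log2 fold change lay below 0 in 13 of 14 clusters, from -0.50 in Isg+_Macrophage to 0.07 in B_cell_2. Of 293 gene tests, 54 (18.4%) were lower and 2 (0.683%) higher in OM at an unadjusted p under 0.05, beside 2.04% lower and 1.77% higher over all genes of the 14 clusters. Only Dusp2 in cDC2 was called.

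Examples from the B cells show how the datasets differed. Junb, a subunit of AP-1, was at 2092, 280.5 and 2904 CPM in the B cells of OM and 3817, 628 and 2923 CPM in those of IM. Fos, its partner, was at 1270, 177.8 and 1693 CPM in OM and 2393, 538 and 1753 CPM in IM. Both were lower in OM in Aachen and Bonn and nearly level in Hamburg, and neither was called (log2 fold changes -0.67 ± 0.19 and -0.87 ± 0.30, SE, edgeR adjusted p = 0.896 and 0.9996). The same held over the list: the median lay below 0 in 12 of 14 clusters in Aachen, 13 in Bonn and 5 in Hamburg. Without the Bonn IM library, medians lay below 0 in 5 of 14 clusters, and 20 tests were lower and 15 higher in OM. Without the Aachen IM library they lay below 0 in 13, with 64 lower and 5 higher. With the whole Bonn dataset left out, medians lay below 0 in 9 of 14 clusters, with 28 of 303 tests lower (9.24%) and 13 higher (4.29%), beside 1.84 and 1.42% over all genes, and 3 calls. The number of clusters below 0 thus changed most with the Bonn IM library, and the Aachen pair was lower in OM in most clusters as well. The part of sample handling was not tested.

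**Figure D5:**
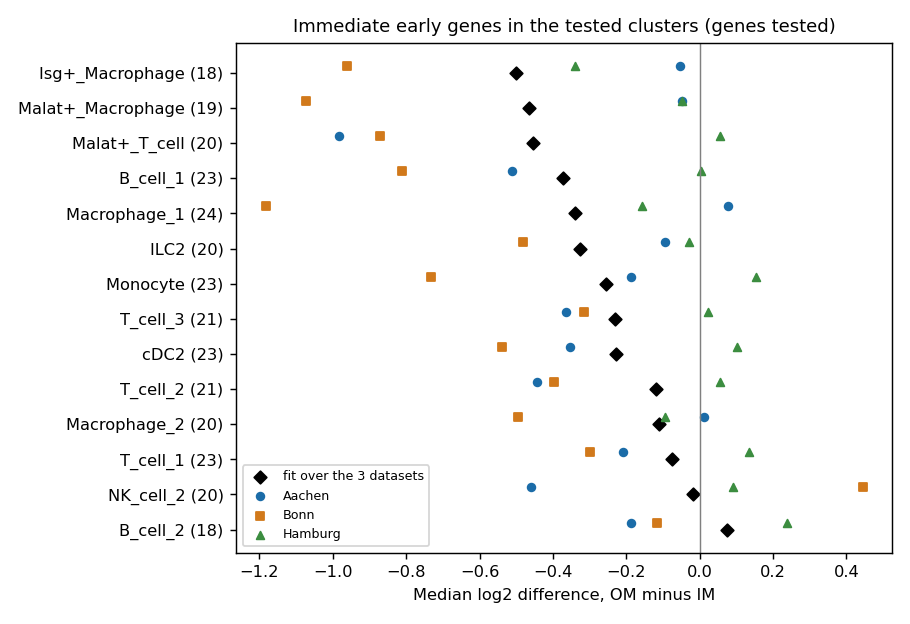
Median log2 difference of the immediate early genes, OM minus IM (x axis), in each of the 14 tested clusters, with the number of genes tested in brackets; black diamonds are the medians of the fit over the 3 datasets and coloured points those of single datasets. The Bonn points lie farthest left in most clusters and the Hamburg points lie around 0.

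Lists that describe the medullary environment showed little. Genes of hypoxia and glycolysis had medians from -0.22 to -0.01 over the 6 classes and those of the osmotic response from -0.12 to 0.19, with 0 called in either. NRF2 and oxidative stress genes ran from -0.18 to 0.02 and heat shock genes from -0.34 to -0.10, with 0 called in the classes. The medians of all genes lay between -0.01 and 0.01 in these classes.

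Among the immune function lists, calls were rare. Interferon response genes, chemokines and cytokines, and cytotoxic effectors had the most tests lower in OM at an unadjusted p under 0.05. The list of chemokines and cytokines and that of cytotoxic effectors share Ccl4, Ccl5 and Ifng. Over all genes of a class, 1.31 to 2.29% were lower and 0.928 to 2.38% higher at that level. Interferon response genes had medians from -0.26 to -0.02 over the classes, below 0 in 6 of 6, with 7 of 80 tests lower and 0 higher and Isg15 in cDCs as the single call. MHC class II genes, which present antigen to CD4+ T cells, ran from -0.02 to 0.30 with 0 called. Chemokines and cytokines ran from -0.53 to 0.05, with 11 of 80 tests lower and 3 higher, and chemokine receptors from -0.28 to 0.03, also with 0 called in the classes. Cytotoxic effectors, with 10 of 46 tests lower, 0 higher and 0 called, had a median below 0 in 6 of 6 classes. It was lowest in B cells (-1.23 over 5 genes). In B_cell_1 the NK cell markers were also lower in OM, at 0.423, 0 and 0.133 per 10000 UMIs against 0.929, 0.0888 and 0.339 in IM. The NK cell markers share Nkg7, Gzma and Prf1 with the cytotoxic effectors, and rested on at most 34 UMIs in a library. Lists of lymphocyte circulation (-0.34 to 0.21) and tissue residency (-0.56 to -0.03) gave 0 calls.

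To weigh every cell type equally, log2 CPM was averaged over 13 clusters in each library and compared with limma over 3706 genes. No gene was called (percent called 0, smallest adjusted p = 0.999), and 115 genes (3.10%) had an unadjusted p under 0.05. Isg15 had the smallest p, with differences of -1.13, -0.63 and -0.27 in Aachen, Bonn and Hamburg and a mean of -0.68 ± 0.16 (SE), and lay below 0 in 11 of 13 clusters. In single classes its log2 fold change was -0.94 in T cells, -0.70 in B cells, -0.44 in NK cells and -0.49 in resident macrophages, of which none passed. The next were Nr4a1, an immediate early nuclear receptor (-0.80 ± 0.21), and Ifrd1, a transcriptional coregulator (-0.63 ± 0.17), both lower in OM in 3 of 3 datasets. The immediate early genes were below 0 in 22 of 22 cases, with a median of -0.36 beside -0.03 over all genes. Of the 22, 9 were below 0 in 3 of 3 datasets, beside 14.6% of all genes. The medians of the immediate early genes were -0.32 in Aachen, -0.71 in Bonn and 0.04 in Hamburg.

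Whether a class responded otherwise than the remaining cells was tested for 5 classes. No gene had a different OM-IM effect in T cells, B cells, NK cells, cDCs or resident macrophages after adjustment by edgeR, with 72 to 239 genes per class at an unadjusted p under 0.05. The smallest adjusted p was 0.475, for Igkv1-135 in B cells.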

How the data were processed

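Living CD45+ cells were profiled with 10x Genomics chemistry (v2 in Aachen, v3 in Bonn and Hamburg) and sequenced on a NovaSeq. Per the study's methods, the authors made the counts with Cell Ranger on mm10, set limits on genes and mitochondrial reads per cell in Seurat, integrated the datasets and named clusters with SingleR. The deposited table of counts, 1 row per cell and 32886 gene columns, gives each cell's compartment, facility and cluster, which were used as deposited. The values were whole in Aachen and Bonn, while 0.118% of the nonzero Hamburg values were whole, so they were read as estimated counts (deposited, unit expected counts) and the sums were rounded to whole numbers. How the Hamburg values came to be fractional is not given in the sources used here. Columns that no sample could claim numbered 0.

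Cells were summed per library and cluster, or per class of clusters. Genes were filtered with filterByExpr, scaled by TMM and tested with edgeR's quasi-likelihood test (edgeR 4.0.16, R 4.3.3) on all 9 libraries, cortex included, with compartment and dataset as terms, in clusters with at least 10 cells in each of the 6 OM and IM libraries. Cell numbers were tested in the same way against library totals, and levels averaged over clusters (prior count 2) with limma 3.58.1. P-values were adjusted by Benjamini-Hochberg within a cluster, at 0.05. The exact test of single shares permuted compartments within datasets. DESeq2 1.42.0 was an alternative. On simulated data with known changes the scripts recovered their signs. Deviations of libraries of 1 dataset from the compartment means correlated (r 0.916 to 0.970 over 9 pairs and 3706 genes), against -0.88 to 0.55 between datasets, so the dataset was used as the block. A technical difference between facilities gives such a correlation too, so it cannot show that the libraries of a dataset share mice.

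Doublets were left in, as deposited. As an alternative, 539 cells (2.66% of 20266) were removed that held at least 2 UMIs, and at least 0.25 of the lineage's own median share, for 2 or more of 3 marker lists (T cells, B cells, resident macrophages). Another alternative thinned each cell to 500 UMIs, which left out 580 Aachen OM and 159 Aachen IM cells. Intervals of shares (exact binomial, 95%) and of count ratios, and the floor of 3 counts, cover counting error only. Library totals ran from 2550973 UMIs (Aachen IM) to 8793678 (Bonn IM) over OM and IM.

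The members and gene lists were chosen with earlier results of these data known. Named genes were those with an adjusted p under 0.05 and the same sign in 3 of 3 datasets, the 5 smallest p-values of a cluster with fewer than 5 such genes, and the 3 smallest p-values of each list and class. Other calls, and the dendritic cell genes that did not pass, were named after their values were seen. Gene positions came from GENCODE vM21 and promoters from RefSeq (GRCm38.p6). Nothing says that the libraries came from separate mice.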

Additional observations from a re-analysis of the deposited data

Results flagged for a closer look

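Dusp2, the MAP kinase phosphatase called in cDC2, was higher in OM in 3 of 3 datasets in NK_cell_2, with a log2 fold change of 0.26, and lower in OM in 3 of 3 datasets in Macrophage_1, Malat+_Macrophage, T_cell_1, T_cell_2, T_cell_3 and cDC2. It stood out because every library pair of NK_cell_2 moved one way and every pair of those 6 clusters the other way. The difference between these clusters was not tested. Over the classes, the effect in NK cells minus that in all other cells was 0.58 on the log2 scale (edgeR adjusted p rounding to 1). Of the 14 clusters, NK_cell_2 was among those with the fewest genes tested (1155).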

How the results depend on the processing

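The count of clusters with a different share was 0, and so was the count of genes in the cluster-averaged level, under every alternative run. The count of genes called within clusters was 20 and moved to 67 with the 6 OM and IM libraries only, 6 with DESeq2, 31 with genes counted in each dataset, 280 without the filter, 7 after thinning, 7 with adjustment over all clusters together, 36 without Aachen IM, 41 without Bonn IM and 36 to 99 when a dataset was left out. Within classes it was 8 and moved to 23 with 6 libraries, 273 without the filter, 14 without doublets, 17 without Aachen IM, 15 without Bonn IM, 2 with joint adjustment and 14 to 97 when a dataset was left out. Without the dataset as replicate block both counts were 0, and every one of the 28 calls was lost. Of the 28 calls, 28 passed with RLE scaling, 8 with DESeq2, 18 without Aachen IM, 11 of 27 without Bonn IM and 3 of 8 after thinning. The cause of these changes was not tested.

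Log2 ratios of shares that changed sign were those of B_cell_1 (0.069 with TMM, 0.036 outside resident macrophages), B_cell_3 (-0.16 without the block), Macrophage_1 (1.004 without Bonn IM), Macrophage_2 (-0.053 without the block, -0.13 without Bonn IM), Malat+_T_cell (-0.014 with 6 libraries, -0.086 without the block, -0.20 without Bonn IM), NK_cell_1 and NK_cell_2 (0.16 without Aachen IM for both), pDC (-0.070 with limma and with 6 libraries, -0.0078 without doublets, -0.49 without Bonn IM) and Undefined (0.71 without Bonn IM). When a dataset was left out, ratios crossed 0 for B_cell_3 (-0.26 to 1.92), cDC1 (-0.29 to 0.90), cDC2 (-0.026 to 0.46), Macrophage_1 (-0.96 to 0.58), Macrophage_2 (-0.050 to 1.03), Malat+_T_cell (-0.43 to 0.23), Monocyte (-0.59 to 0.11), NK_cell_1 (-1.003 to 0.053), NK_cell_2 (-0.95 to 0.34), pDC (-0.48 to 0.65) and Undefined (-0.76 to 0.75). Among genes, Hspb1 in Monocyte (-0.029 with DESeq2, -0.14 to 2.90 when a dataset was left out) and C1qc in Monocyte (-0.010 after thinning) changed sign. Depth limits the Aachen libraries, with medians of 744 and 971 UMIs per cell, and clusters with fewer than 10 cells in a library were not tested for genes (9 of 23).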
